A study of Mus musculus with 2208 samples.

Results

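The onset of the microglial response was followed within the CK-p25 genotype, by comparing single hippocampal cells of CKp25 mice 1 week after p25 induction with those of CKp25 mice before it (0 weeks). The cells were chosen by the labels of their wells, without any measured value. Each of 3 mice at 1 week and 3 mice at 0 weeks gave 96 wells, in all 576 of the 2208 wells in the series. The first well of each mouse was left out, as were wells with fewer than 1000 genes at an FPKM (fragments per kilobase of transcript, scaled to the mapped fragments of the well) of 1 or more. Wells below that number of genes were 10, 8 and 3 in mice 1, 2 and 3 at 1 week, and 6, 12 and 10 at 0 weeks. This left 264 cells at 1 week (85, 87 and 92 per mouse) and 257 at 0 weeks (89, 83 and 85), 521 of the 2003 kept in the series.

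In the CK-p25 model, p25 is switched on in forebrain neurons, not in microglia, by a tetracycline-regulated driver under the CaMKII promoter, and CK mice carry the driver without p25. The CKp25 mice were aged 3 months and 1 week at the later time and 3 months before induction. CK control littermates of the same ages, 3 mice at each time, gave 269 kept cells at 1 week and 271 at 0 weeks. Their values stand beside many of the results, and a rise given without them is not set against CK mice. Cells carrying the surface proteins CD11b and CD45 were sorted into 96-well plates after enzymatic digestion of the hippocampus, and libraries were made with a modified Smart-seq2 protocol.

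The protein p25 is a truncated form of p35, the activator of the kinase Cdk5. It outlives p35 and keeps Cdk5 active, and neurons that accumulate it degenerate. Microglia, the resident macrophages of the brain, divide rarely in the healthy adult. After injury to neurons they are known to proliferate and to release chemokines and cytokines. A dividing cell first makes the enzymes that copy DNA, then the kinesins, kinases and cyclins of mitosis, along with chromatin proteins and tubulin.

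Levels are means over the cells of a mouse of log2(FPKM + 1), and a difference is the mean of the 3 mice at 1 week minus that at 0 weeks, ± its standard error from limma. On this scale the change of low genes is understated. Of 9162 genes tested, 840 (9.17%) were higher and 10 (0.109%) were lower in CKp25 mice at 1 week (limma with Benjamini-Hochberg adjustment over all genes, threshold 0.05). In CK mice limma called 0 genes in either direction between the same weeks, with 1017 at an unadjusted p under 0.05 against 2125 in CKp25 mice. The change was more positive in CKp25 than in CK mice for 81 genes (0.884%) and more negative for 4 (0.0437%), by the test of the difference itself. Of the 81, 54 belonged to the 6 cell cycle lists described here. A gene found only in the 1-week CKp25 cells could enter this test only by differing, so that count is a description. The 3 mice at 1 week all lay above the 3 mice at 0 weeks in 2181 genes (23.8%) of CKp25 mice and 1766 genes (19.3%) of CK mice, and all below in 291 (3.18%) and 125 (1.36%).

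The depth of the wells moved with the week in both genotypes. The median number of genes per kept well was 2497, 2788 and 2133 in CKp25 mice at 1 week and 1979, 1954 and 2443 at 0 weeks (exact permutation, 2-sided, p = 0.2, where 3 mice against 3 cannot give less than 0.1). In CK mice it averaged 2462 ± 299 at 1 week and 2102 ± 122 at 0 weeks (SD, n = 3; p = 0.2 by the same exact test). The median difference over all genes tested was 0.18 in CKp25 and 0.15 in CK mice, and the medians of gene lists are to be read against these. With mouse profiles brought to one distribution by quantile normalization, 345 genes (3.77%) were higher and 123 (1.34%) lower in CKp25 mice. With median genes per well as a covariate the counts were 444 (4.85%) and 24 (0.262%), and with only wells of 1500 to 3500 genes they were 115 (1.26%) and 1 (0.0109%). Taking the log2 after averaging FPKM over a mouse (the log2 of the mean FPKM) gave 84 (0.917%) and 0. How far depth enters each list was not tested beyond these counts, which are given with the lists.

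Of the called genes, 28 of 35 in DNA replication and 29 of 33 in mitosis kept their call in each omission of 1 of the 6 CKp25 mice, as did 242 of the 840 higher genes in all. The same 9162 genes were tested in each omission. A gene that entered through the mouse left out therefore stayed in, and these counts are a description. The promoters of 4 of these genes are shown for the short motifs known from their 2 classes. Genes of DNA replication are known as targets of E2F factors, and genes of mitosis often hold the CHR element TTTGAA near their start beside CCAAT boxes. The sequences are RefSeq promoters of build GRCm38.p6, mostly upstream of the gene start, and the coordinates are of that build, not of the build mm9 of the deposited values. Top2a lies at chr11:99024140-99024439 and Cdk1 at chr10:69352863-69353162, both on the minus strand, with capitals marking TTTGAA and CCAAT on either strand.
Top2a: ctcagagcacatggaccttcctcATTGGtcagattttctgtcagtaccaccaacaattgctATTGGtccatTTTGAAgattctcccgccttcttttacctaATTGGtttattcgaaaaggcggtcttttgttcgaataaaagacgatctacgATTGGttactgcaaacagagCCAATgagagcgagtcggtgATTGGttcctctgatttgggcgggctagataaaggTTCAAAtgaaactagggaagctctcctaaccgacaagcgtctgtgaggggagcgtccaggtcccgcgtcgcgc
Cdk1: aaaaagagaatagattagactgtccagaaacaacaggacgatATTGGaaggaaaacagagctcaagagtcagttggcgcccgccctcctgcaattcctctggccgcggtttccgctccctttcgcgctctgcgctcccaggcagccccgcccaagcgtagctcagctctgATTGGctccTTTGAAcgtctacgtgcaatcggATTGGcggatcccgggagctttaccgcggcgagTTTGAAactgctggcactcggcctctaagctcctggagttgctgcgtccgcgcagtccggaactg
Mcm5 lies at chr8:75109259-75109558 on the plus strand and Mcm6 at chr1:128359656-128359955 on the minus strand, with capitals marking the E2F words TTTCCCGC, TTTGGCGC, TTTGCCGC and TTTCGCGC on either strand, which can overlap each other.
Mcm5: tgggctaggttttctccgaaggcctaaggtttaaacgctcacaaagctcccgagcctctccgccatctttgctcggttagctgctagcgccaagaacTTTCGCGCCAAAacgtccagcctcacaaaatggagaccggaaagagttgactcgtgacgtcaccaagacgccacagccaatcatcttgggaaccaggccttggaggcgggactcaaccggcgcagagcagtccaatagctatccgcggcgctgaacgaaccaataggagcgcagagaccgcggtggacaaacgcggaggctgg
Mcm6: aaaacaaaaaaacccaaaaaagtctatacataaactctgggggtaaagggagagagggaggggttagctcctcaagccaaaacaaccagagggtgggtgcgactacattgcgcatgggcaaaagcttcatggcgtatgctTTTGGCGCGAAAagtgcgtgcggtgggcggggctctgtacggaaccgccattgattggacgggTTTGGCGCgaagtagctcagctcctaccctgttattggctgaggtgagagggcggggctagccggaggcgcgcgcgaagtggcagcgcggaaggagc
The letters TTTGAA were found on either strand in 24 of 32 promoters (75%) of mitosis genes and in 17.9% of all 32851 promoters of the same length, with 30 of the 36 tested mitosis genes in the table. At least 1 of the E2F words was found in 12 of 36 promoters (33.3%) of DNA replication genes and in 2.26% of all promoters, with 30 of 38 genes in the table. Promoters of mitosis genes held an E2F word in 9.38%, and TTTGAA was found in 4 of the 36 promoters of DNA replication genes. A match describes these letters and is no evidence of binding.

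DNA replication genes rose at 1 week. Of 45 listed genes 38 were tested, and 35 of these were higher and 0 lower, with a median difference of 0.74 in CKp25 and 0.04 in CK mice. The other 7, among them Mcm10 and Cdc6, were found in too few cells to enter. A gene found only in the 1-week cells could enter only by differing, so such counts are a description. Mcm5, a subunit of the helicase that opens DNA for copying, had levels of 1.85, 2.09 and 1.95 in CKp25 mice at 1 week, against 0.63, 0.16 and 0.28 at 0 weeks. All 3 later mice lay above all 3 earlier ones. The difference was 1.61 ± 0.18 (limma, adjusted p = 2.06e-08), and Mcm5 was found in 29.4%, 36.8% and 33.7% of cells at 1 week, against 14.6%, 4.82% and 10.6%. Mcm6, of the same helicase, had levels of 1.83, 1.81 and 1.94 at 1 week, against 0.29, 0.28 and 0.62. Tk1, thymidine kinase, which salvages a DNA building block during copying, had levels of 1.29, 1.44 and 1.55 at 1 week, against 0.19, 0.09 and 0.22. Again the groups did not overlap for either gene. The difference was 1.46 ± 0.20 for Mcm6 and 1.26 ± 0.12 for Tk1 (limma, adjusted p = 8.74e-07 and 5.80e-10). Rrm2, a subunit of the reductase that makes deoxynucleotides, rose by 0.98 to be found in 15.6% ± 1.57 of cells at 1 week, against 2.36% ± 1.25 (SD over 3 mice). Uhrf1, which carries DNA methylation onto new strands, rose by 1.28, and Lig1, which joins the pieces of the lagging strand, by 1.01. Pcna, the sliding clamp of the polymerases, had levels of 4.44, 3.96 and 3.04 at 1 week, against 1.38, 2.07 and 2.43 (difference 1.85 ± 0.39, limma adjusted p = 0.00156).

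In CK mice the same genes differed less, by 0.37 for Mcm5, 0.03 for Mcm6, 0.04 for Tk1 and 0.37 for Pcna. The rise was larger in CKp25 than in CK mice for 19 of the 38 replication genes, by 1.24 for Mcm5 and 1.22 for Tk1 (limma, adjusted p of the difference 0.00332 and 9.65e-06). The limit on genes found only in the 1-week cells holds for this count and its p-values too. At least 30 replication genes were called with any single CKp25 mouse left out, the lowest count being without mouse 1 at 0 weeks or mouse 2 at 1 week. The count was 30 after quantile normalization, 32 with the covariate, 14 of the 29 tested within wells of 1500 to 3500 genes (median 0.59) and 11 where the log2 was taken after averaging FPKM over the cells of a mouse (median 1.98). Mcm6, Lig1 and Pcna lost their calls in the last of these settings and Pcna also within that window. With the filter at 25% of wells, which 5146 genes passed in all, 7 replication genes were called higher. These were Mcm2, Mcm3, Mcm5, Mcm6, Mcm7, Pcna and Fen1. The other called replication genes did not pass that filter and were not tested there.

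Mitosis genes rose as well. Of 56 listed genes 36 were tested, 33 were higher and 0 lower, and the median difference was 0.84 in CKp25 and 0.01 in CK mice. A mitosis gene found only in the 1-week cells could likewise enter only by differing. These counts, and the p-values of such genes, are therefore a description. Top2a, the topoisomerase that untangles sister chromatids, had levels of 1.36, 1.66 and 1.40 in CKp25 mice at 1 week, against 0.03, 0.15 and 0.04 at 0 weeks. It was close to absent from the earlier mice, and the groups lay far apart. Top2a was found in 22.4%, 25.3% and 25% of cells at 1 week, against 1.12%, 2.41% and 1.18% (difference 1.40 ± 0.10, limma adjusted p = 5.68e-13), with 0.01 as the difference in CK mice. Mki67, the proliferation marker that coats mitotic chromosomes, had levels of 0.89, 1.32 and 0.96 at 1 week, against 0.02, 0.13 and 0.05. Cdk1, the kinase that starts mitosis, had levels of 1.19, 1.82 and 1.32 at 1 week, against 0.28, 0.25 and 0.31. Mouse 2 at 1 week was the highest for both genes, and neither showed overlap between weeks. Spc25, of the kinetochore complex that holds chromosomes to the spindle, was listed at 0 in every CKp25 cell before induction and had levels of 0.84, 1.05 and 0.76 at 1 week. The cyclins Ccnb1 and Ccnb2, partners of Cdk1, rose by 0.94 and 0.96 (limma, adjusted p = 4.66e-09 and 2.84e-09), and the mitotic kinase gene Pbk by 1.16. Hmmr and Racgap1, which act on the spindle and at cytokinesis, were among the 3 that did not pass, with differences of 0.43 and 0.58 (limma, adjusted p = 0.162 and 0.274). Racgap1 was found in 53.8% ± 6.22 of cells at 1 week and 47.4% ± 12.5 at 0 weeks.

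The rise was larger in CKp25 than in CK mice for 24 of the 36 mitosis genes, among them Top2a by 1.39 and Cdk1 by 1.09 (limma, adjusted p of the difference 3.20e-08 and 0.00125). A gene found only in the 1-week CKp25 cells could enter this test only by differing. That count, and the p-values of such genes, are likewise a description. The lowest count of higher mitosis genes without 1 CKp25 mouse was 30 (without mouse 2 at 1 week). It was 28 after quantile normalization, 32 with the covariate and 23 with the log2 of the mean FPKM, where the median difference was 2.17. Within wells of 1500 to 3500 genes 23 mitosis genes were tested and 8 were higher, with a median of 0.46. With the filter at 25% of wells, which 5146 genes passed in all, 2 mitosis genes were called higher. These were Bub3 and Cks2. The other called mitosis genes did not pass that filter and were not tested there.

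**Figure D1:**
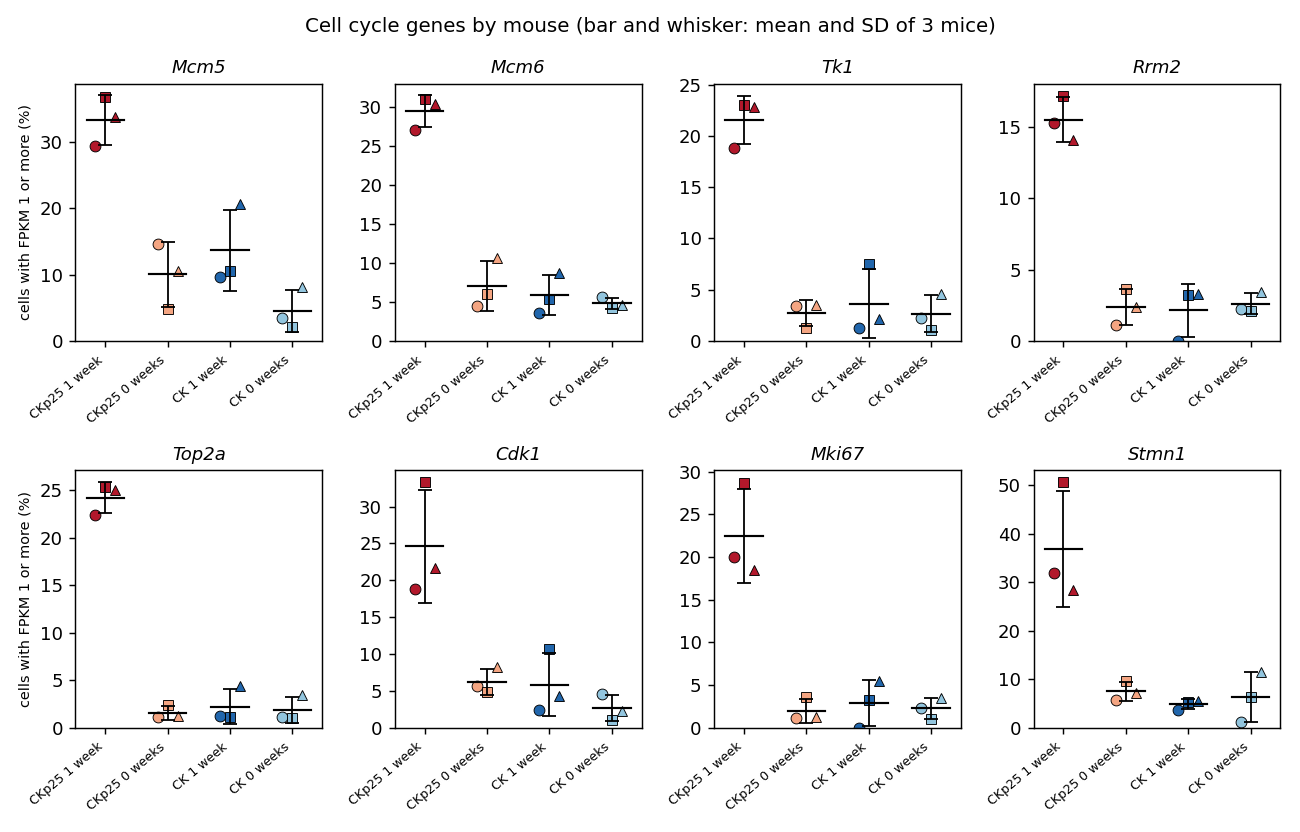
Percent of kept cells in which a gene reached an FPKM of 1 (y axis) in each mouse of 4 groups (x axis) for 4 genes of DNA replication, 3 of mitosis and Stmn1, 1 panel each; points are mice and bars their means. The 3 CKp25 mice at 1 week stand above every other mouse, for Top2a at 22.4% to 25.3% against at most 2.41% in CKp25 mice at 0 weeks.

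Proteins that dividing cells make in bulk followed. Stmn1, which takes microtubules apart before the spindle forms, had levels of 2.50, 3.77 and 2.26 in CKp25 mice at 1 week, against 0.44, 0.62 and 0.44 at 0 weeks. The weeks did not overlap, and mouse 2 at 1 week was the highest. The difference was 2.35 ± 0.30 (limma, adjusted p = 3.93e-07), with -0.12 in CK mice, and Stmn1 was found in 36.9% ± 12 of cells at 1 week and 7.44% ± 2.04 at 0 weeks. Of 11 tested genes of the Stmn1 and tubulin list, 5 were higher (3 without mouse 2 at 1 week), and Tubb6, a beta tubulin, rose by 1.37. Of 21 chromatin proteins of dividing cells 15 were higher and at least 12 with any single CKp25 mouse left out (12 without mouse 1 of either week), with a median of 1.09 in CKp25 and 0.11 in CK mice. Ezh2, the methyltransferase of the Polycomb complex, had levels of 1.34, 1.75 and 1.2 at 1 week, against 0.36, 0.29 and 0.36. Its weeks did not overlap (difference 1.09, limma adjusted p = 1.11e-07). Nasp, a histone chaperone, rose by 1.15, Lmnb1 of the nuclear lamina by 0.93 and the chromatin proteins Hmgb2 and Hmgn2 by 1.31 and 2.32. With the log2 of the mean FPKM 2 and 5 genes of these lists were called, and Stmn1, Tubb6 and Ezh2 were not.

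Among 12 tested genes of cell cycle entry, 7 were higher, and among 13 brakes, 3, against 9.17% of all genes tested. The medians of the 2 lists were 0.48 and 0.24 in CKp25 mice, and 0.15 and 0.24 in CK mice. Cdk4, the kinase that starts the inactivation of the retinoblastoma protein, had levels of 3.75, 4.08 and 3.36 in CKp25 mice at 1 week, against 1.30, 2.05 and 1.86 at 0 weeks. The lowest later mouse lay well above the highest earlier one (difference 1.99 ± 0.40, limma adjusted p = 0.000726), and CK mice differed by 0.88. E2f2, an activating E2F factor, rose by 0.46 and the repressor E2f8 by 0.49. Myc, the transcription factor of growth, rose by 1.12 (limma, adjusted p = 0.00905), a call lost without mouse 1 at 0 weeks. The calls of Ccnd1, Cdk6 and Cdc25a, which drive entry into the cycle, were each lost in 3 or 4 of the 6 omissions of a CKp25 mouse. Of the entry list 3 genes were called without mouse 1 at 0 weeks. Cdkn1a, the inhibitor p21 that a damaged or arrested cell makes, had levels of 1.90, 3.02 and 2.73 at 1 week, against 0.65, 0.51 and 0.59. It stood well apart between the weeks (difference 1.97 ± 0.32, limma adjusted p = 2.54e-05; CK mice 0.25) and was found in 40.4% ± 11.3 of cells at 1 week, against 10.5% ± 1.12. Rbl1, a relative of the retinoblastoma protein, rose by 0.72. Trp53, the tumour suppressor p53, was called at 1.29 (limma, adjusted p = 0.0376), but not without mouse 1 or 2 at 0 weeks or mouse 1 at 1 week. With the log2 of mean FPKM 2 entry genes and 0 brakes were called, and within wells of 1500 to 3500 genes 1 of each.

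The genes were also counted cell by cell. The median number of the 45 replication genes per cell was 5, 6 and 3 in the CKp25 mice at 1 week, against 2, 2 and 3 at 0 weeks, and 65.7% ± 7.99 of cells at 1 week and 44.1% ± 8.93 at 0 weeks had 3 or more. At 1 week 52.9%, 56.3% and 44.6% of the cells of the CKp25 mice had 5 or more of the 45 replication genes at FPKM of 1 or more, against 7.87%, 15.7% and 17.6% at 0 weeks. Those with 10 or more were 30.6%, 39.1% and 31.5% at 1 week, against 1.12%, 6.02% and 2.35%. For 10 or more of the 56 mitosis genes the shares were 20.0%, 24.1% and 22.8% at 1 week, against 1.12%, 2.41% and 1.18%. Each of these shares was free of overlap between the weeks (exact permutation, 2-sided, p = 0.1, the smallest that 3 against 3 can give). In CK mice the shares with 10 or more replication genes were 1.49% ± 1.65 at 1 week and 1.52% ± 1.76 at 0 weeks. At the lower cuts CK mice moved the same way. Their shares with 3 or more replication genes were 56.3% ± 7.6 at 1 week and 41.4% ± 6.18 at 0 weeks, and with 5 or more 20.4% ± 5.16 and 11.5% ± 2.99. Neither overlapped between the weeks (exact permutation, 2-sided, p = 0.1 for both). Within wells of 1500 to 3500 genes, 44.6% ± 1.52 of CKp25 cells at 1 week and 12.2% ± 3.32 at 0 weeks had 5 or more replication genes, and in CK mice 20.4% ± 4.16 and 11.4% ± 2.52. The same cut for mitosis genes separated less, at 41.2%, 50.6% and 30.4% at 1 week and 16.9%, 10.8% and 29.4% at 0 weeks, and CK mice gave 29.3% ± 7.75 and 12.7% ± 7.03. Within wells of 1500 to 3500 genes it gave 31.3% ± 1.74 at 1 week and 19.8% ± 8.95 at 0 weeks in CKp25 mice, and 28.8% ± 5.46 and 12.8% ± 6.97 in CK mice, with the weeks further apart in CK than in CKp25 mice.

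**Figure D2:**
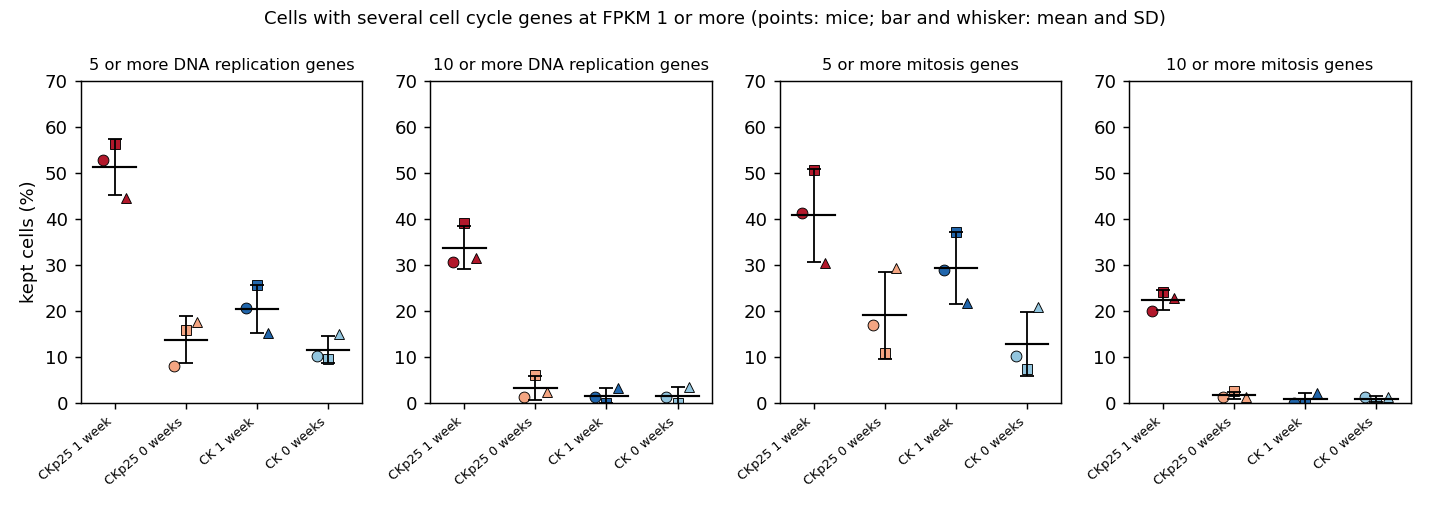
Percent of kept cells (y axis) with at least 5 or at least 10 of the DNA replication or mitosis genes at FPKM of 1 or more, in each mouse (points) of 4 groups (x axis), with bars for group means. With at least 10 replication genes the CKp25 mice lie between 30.6% and 39.1% at 1 week and at or below 6.02% at 0 weeks.

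Cells with 10 or more genes of either kind numbered 95 of 264 at 1 week (27, 36 and 32 in the 3 mice) and 10 of 257 at 0 weeks (2, 5 and 3). In CK mice they numbered 5 of 269 at 1 week and 5 of 271 at 0 weeks. Of the 95, 53 passed for both kinds, 36 for replication genes alone and 6 for mitosis genes alone. The class is a range of a score and not a type of cell, with 22 cells just below the replication cut (7 to 9 genes) and 15 just inside it (10 to 12 genes) at 1 week. The fullest cell of each mouse held 37, 41 and 38 replication genes at 1 week, against 14, 29 and 19, and 51, 55 and 51 mitosis genes, against 10, 46 and 10. The 46 came from mouse 2 at 0 weeks, which also held the 1 kept well with over 8000 genes. These cells held more genes per well, with medians of 3407, 3658 and 2754.5 genes per well at 1 week, against 2213.5, 2545 and 1828.5 in the other cells of the same mice.

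**Figure D3:**
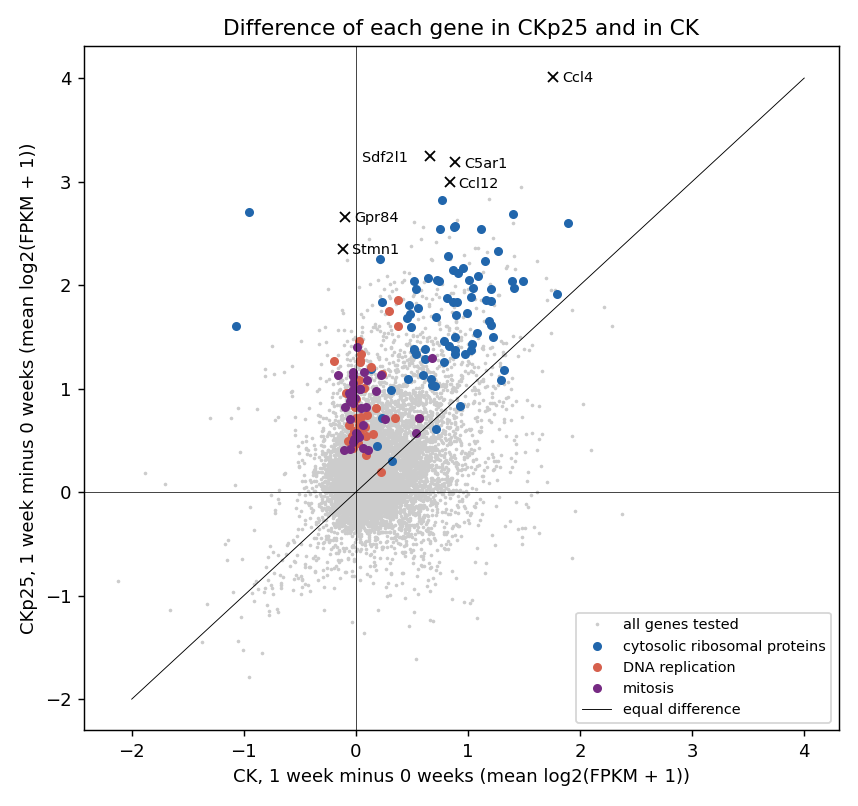
Difference between 1 and 0 weeks in mean log2(FPKM + 1) for each tested gene in CKp25 mice (y axis) and in CK mice (x axis), with DNA replication, mitosis and ribosomal protein genes coloured and 6 genes marked. Replication and mitosis genes lie high near 0 of the CK axis (medians 0.74 and 0.84 in CKp25 mice, 0.04 and 0.01 in CK mice), while ribosomal protein genes lie to the upper right (medians 1.73 and 0.85).

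Chemokine and cytokine genes also rose. Of 30 listed genes 19 were tested, of which 8 were higher and 0 lower, against 9.17% higher among all genes tested. The median was 0.74 in CKp25 and 0.36 in CK mice. Ccl4, a chemokine that draws in leukocytes, had the largest difference of all called genes, with levels of 5.11, 6.56 and 7.49 in CKp25 mice at 1 week, against 2.32, 3.64 and 1.15 at 0 weeks. The weeks did not overlap, and the earlier mice spread widely. The difference was 4.01 ± 0.69 (limma, adjusted p = 0.000164), and the share of cells with Ccl4 was 64.2% ± 9.92 at 1 week and 27.0% ± 14.6 at 0 weeks. In CK mice the same share was 36.0% ± 7.80 at 1 week and 16.5% ± 7.32 at 0 weeks (difference 1.76, limma adjusted p = 0.367), and the difference between the genotypes, 2.25 ± 0.98, did not pass (limma, adjusted p = 0.489). Ccl3, a chemokine akin to it, had levels of 4.52, 5.82 and 5.61 at 1 week, against 1.9, 3.9 and 2.26. Ccl12, a monocyte chemokine, had levels of 4.90, 3.51 and 4.16 at 1 week, against 0.92, 1.09 and 1.58. Neither overlapped between weeks. The difference was 2.63 ± 0.53 for Ccl3 and 2.99 ± 0.48 for Ccl12 (limma, adjusted p = 0.000889 and 2.87e-05), and in CK mice 0.90 and 0.84. Ccl3, Ccl4 and Ccl12 have close relatives in the genome, so their values are uncertain where fragments could be shared. The calls of Ccl3 and Ccl4 were lost with the log2 of the mean FPKM and within wells of 1500 to 3500 genes.

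Tnf, the tumour necrosis factor gene, had levels of 2.57, 2.71 and 2.46 in CKp25 mice at 1 week, against 0.51, 1.10 and 0.26 at 0 weeks. The later mice were tight and the earlier ones all lower (difference 1.96 ± 0.28, limma adjusted p = 4.01e-06). It was found in 37.9% ± 4.02 of cells at 1 week and 9.84% ± 7.20 at 0 weeks. Tnf was the only member of its list whose rise exceeded that in CK mice by the test of the difference (1.60, limma adjusted p = 0.0335), a call lost in 7 of 12 omissions of a mouse. Mif, a cytokine stored in the cytosol that holds macrophages in place, had levels of 4.63, 4.48 and 3.89 at 1 week, against 1.88, 1.06 and 1.56, and the weeks did not overlap. Its difference was 2.83 ± 0.41 (limma, adjusted p = 4.42e-06), with 1.18 in CK mice. The other called members were Cxcl16, Ccl2 and Osm, at 1.72, 1.35 and 0.74, whose calls were lost without mouse 1 at 0 weeks among others. Without mouse 1 at 0 weeks, or without mouse 1 at 1 week, 5 genes of the list were called, as were 5 with the log2 of mean FPKM and 4 within wells of 1500 to 3500 genes. Il1b, the interleukin gene of the inflammasome, did not pass at 0.29 (limma, adjusted p = 0.375).

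The receptor genes C5ar1 and Gpr84 rose beyond the change in CK mice. Of the 26 tested genes of their list 3 were higher, against 9.17% of all genes tested. The median of the list was 0.17 in CKp25 and 0.36 in CK mice. C5ar1, the receptor of the complement fragment C5a, had levels of 5.11, 4.57 and 5.08 in CKp25 mice at 1 week, against 1.16, 1.90 and 2.14 at 0 weeks. Gpr84, a receptor of medium-chain fatty acids found on activated myeloid cells, had levels of 5.01, 4.49 and 5.27 at 1 week, against 1.89, 2.65 and 2.25. For both genes all later mice lay above all earlier ones by a wide margin. C5ar1 differed by 3.19 ± 0.40 and Gpr84 by 2.66 ± 0.46 (limma, adjusted p = 2.47e-07 and 7.63e-05). C5ar1 was found in 71.2% ± 2.63 of CKp25 cells at 1 week and 29.0% ± 10.8 at 0 weeks, and in 45.7% ± 4.35 and 32.1% ± 1.59 of CK cells at the same times. Gpr84 was found in 67.7% ± 4.82 of CKp25 cells at 1 week and 34.8% ± 6.67 at 0 weeks, and in 39.0% ± 2.3 and 39.2% ± 2.02 of CK cells. The rise exceeded that in CK mice by 2.76 ± 0.64 for Gpr84 and 2.3 ± 0.57 for C5ar1 (limma, adjusted p = 0.0159 and 0.0276). These calls of a difference were lost in 3 and 5 of 12 omissions of a mouse, with a largest adjusted p of 0.0808 and 0.159. Both were also lost with the filter at 25% of wells, with the log2 of mean FPKM and within wells of 1500 to 3500 genes, while the rise within CKp25 mice was called in every setting tried. Of the other receptors in the list of 26 tested, Tlr2, which senses bacterial lipoproteins, rose by 1.80, a call lost without mouse 1 at 0 weeks or mouse 2 at 1 week, and Tlr4, the endotoxin receptor, did not pass at -0.35 (limma, adjusted p = 0.669).

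Genes of the NF-kappaB pathway, which transmits signals of Tnf and of Toll-like receptors, were called at about the rate of all genes. Of 20 tested genes 2 were higher, against 9.17% of all genes tested, with a median of 0.31 in CKp25 and 0.25 in CK mice. These were Relb, a subunit, at 0.99 (limma, adjusted p = 0.00517, lost without mouse 1 at 1 week) and Icam1, an adhesion molecule, at 1.24 (limma, adjusted p = 0.0454, lost in each of the 6 omissions of a CKp25 mouse). Nfkbia, the inhibitor that NF-kappaB itself induces, did not pass at 0.93 (limma, adjusted p = 0.362).

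**Figure D4:**
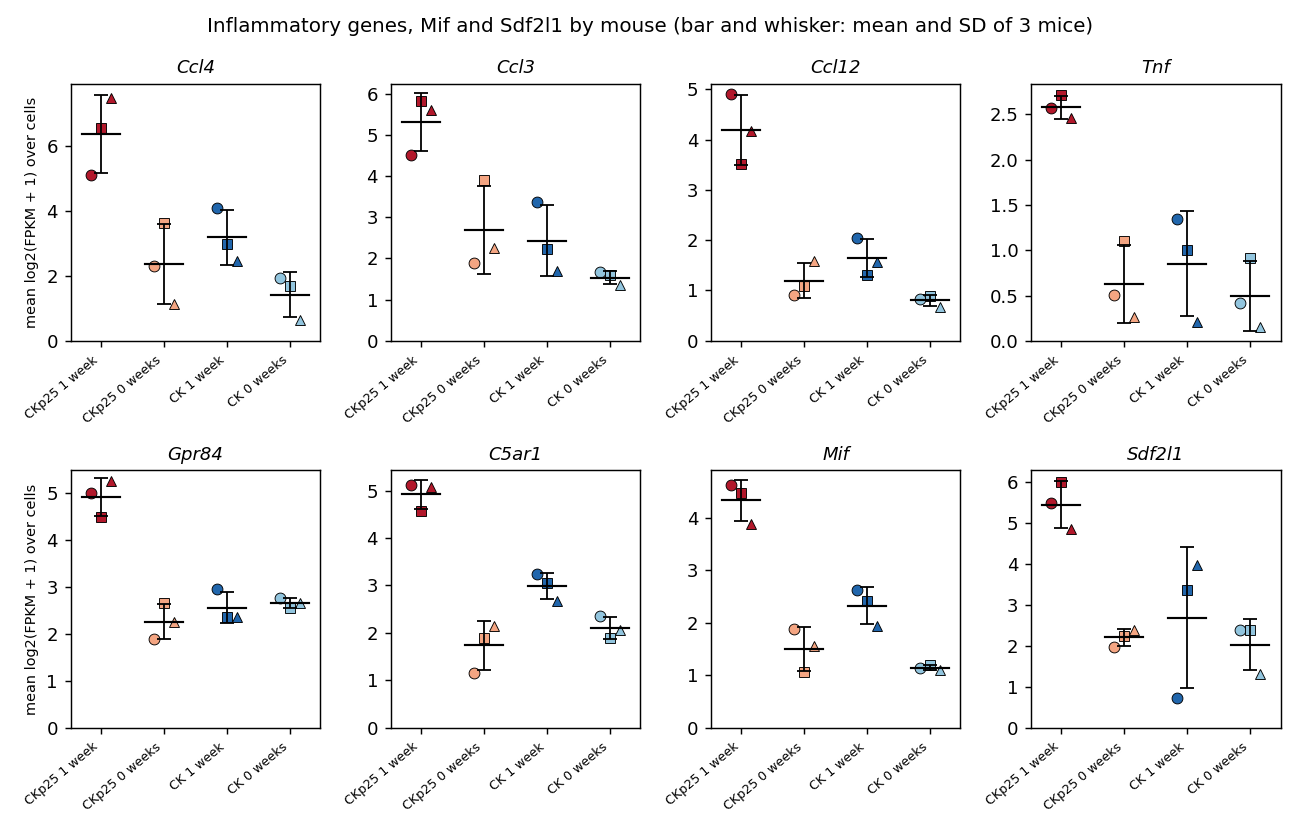
Mean log2(FPKM + 1) over the kept cells (y axis) of each mouse (points) of 4 groups (x axis), with bars for group means, for 5 cytokine genes, 2 receptor genes and Sdf2l1. For C5ar1 and Gpr84 the CKp25 mice at 1 week lie between 4.49 and 5.27, above the CKp25 mice at 0 weeks at 1.16 to 2.65.

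Chaperones of the endoplasmic reticulum, where secreted and surface proteins fold, were higher at 1 week. Of 34 listed genes 32 were tested and 13 were higher, against 9.17% of all genes tested. The median was 1.06 in CKp25 and 0.45 in CK mice. Sdf2l1, a cofactor of the chaperone BiP, had levels of 5.50, 6.00 and 4.85 in CKp25 mice at 1 week, against 1.98, 2.25 and 2.38 at 0 weeks. The lowest later mouse stood far above the highest earlier one. The difference was 3.25 ± 0.53 (limma, adjusted p = 3.17e-05), with 0.66 in CK mice, and the difference between the genotypes, 2.58, had an adjusted p of 0.0949 by limma. Creld2, which helps disulfide bonds form, had levels of 3.53, 3.67 and 3.15 at 1 week, against 1.79, 1.45 and 1.5, without overlap (difference 1.87 ± 0.34, limma adjusted p = 0.000157; CK mice 0.68). Sec61b, a subunit of the channel through which proteins enter, and Ssr4, of a complex beside it, rose by 2.03 and 2.60, and CK mice differed by 1.40 for Ssr4. Hspa5, which encodes BiP, had levels of 8.04, 7.18 and 6.98 at 1 week, against 5.57, 4.73 and 6.35. Its difference was 1.85 ± 0.55 (limma, adjusted p = 0.0268), a call lost without mouse 1 or 2 of either week. With single CKp25 mice left out the lowest count was 7 (without mouse 1 at 0 weeks or mouse 2 at 1 week), and it was 7 after quantile normalization, 8 with the covariate, 4 within wells of 1500 to 3500 genes and 0 with the log2 of the mean FPKM.

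The promoters of Creld2 and Hspa5 are shown because they hold the endoplasmic reticulum stress element, which is CCAAT and CCACG held 9 bases apart and was searched on both strands. It was found in 7 of 24 promoters (29.2%) of this list, with 24 of its 32 tested genes in the table, and in 0.119% of all promoters. In the sequences, again from RefSeq GRCm38.p6, capitals mark the outer letters of the element. Creld2 lies at chr15:88819396-88819695 and Hspa5 at chr2:34771840-34772139, both on the plus strand.
Creld2: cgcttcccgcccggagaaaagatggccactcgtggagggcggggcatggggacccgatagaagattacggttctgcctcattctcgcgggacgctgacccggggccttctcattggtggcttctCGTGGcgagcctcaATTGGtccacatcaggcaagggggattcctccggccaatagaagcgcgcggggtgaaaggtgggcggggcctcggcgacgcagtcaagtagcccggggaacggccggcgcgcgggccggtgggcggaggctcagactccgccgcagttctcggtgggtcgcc
Hspa5: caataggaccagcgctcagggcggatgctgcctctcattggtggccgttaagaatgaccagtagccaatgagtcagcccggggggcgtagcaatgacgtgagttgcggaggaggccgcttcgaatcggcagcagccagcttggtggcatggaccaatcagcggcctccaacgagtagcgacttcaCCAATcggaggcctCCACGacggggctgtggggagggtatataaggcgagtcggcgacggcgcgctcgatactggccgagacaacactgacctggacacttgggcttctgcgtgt
Whether the promoter of Sdf2l1 holds the element is not given here, and a match is no evidence of binding.

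Genes of sugar use and of protein production were higher too, in lists whose medians in CK mice lay above the 0.15 of all genes tested there, although limma called 0 of their genes in CK mice. Of 18 tested glycolysis genes 9 were higher, against 9.17% of all genes tested. The median was 1.03 in CKp25 and 0.31 in CK mice, where 2 had an unadjusted p under 0.05. Ldha, which makes lactate, had levels of 4.94, 5.35 and 5.40 in CKp25 mice at 1 week, against 2.72, 2.86 and 2.78 at 0 weeks. Both weeks were tight and apart (difference 2.44 ± 0.49, limma adjusted p = 0.000726; CK mice 0.12). Pgk1, a kinase that yields ATP, had levels of 3.65, 4.24 and 3.1 at 1 week, against 1.12, 0.87 and 1.64. It differed by 2.45 ± 0.39 (limma, adjusted p = 2.27e-05), with 1.22 in CK mice. Pkm, pyruvate kinase, and Slc16a3, an exporter of lactate, rose by 2.56 and 1.51. The glycolysis count was 6 without mouse 2 at 0 weeks, 7 after quantile normalization, 4 within wells of 1500 to 3500 genes and 1 with the log2 of mean FPKM.

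Of 76 cytosolic ribosomal protein genes 44 were higher, with a median of 1.73 in CKp25 and 0.85 in CK mice. The count rested on single mice: 9 were called without mouse 2 at 1 week, 11 and 12 without mouse 2 or 1 at 0 weeks, 12 without mouse 1 at 1 week and 52 without mouse 3 at 1 week. Rps18, Rps16 and Rpl12 were among those called in each of the 6 omissions. Rps18, of the small subunit, had levels of 7.29, 7.80 and 6.94 at 1 week, against 4.74, 3.83 and 5.0, without overlap (difference 2.82 ± 0.58, limma adjusted p = 0.000991; CK mice 0.76). Rps2, Rpl39 and Rpl32, at 2.70, 2.68 and 2.60, lost their calls in 5, 5 and 4 of 6 omissions. Ribosomal protein genes have many near-identical pseudogenes, which makes each value uncertain. Nuclear-encoded genes of the respiratory chain behaved alike, with 26 of 50 higher (median 1.28 in CKp25 and 0.62 in CK mice), 5 without mouse 2 at 1 week and 38 without mouse 3 at 1 week. For the proteasome, which degrades proteins, 13 of 31 were higher, but 1 without mouse 1 at 1 week, 2 without mouse 2 of either week and 19 without mouse 3 at 1 week. Of 28 genes of ribosome biogenesis 15 were higher, and 5 without mouse 1 of either week. Among these Srm, which makes the polyamine spermidine, rose by 2.05 and Nop56, of the nucleolus, by 1.76. In all 4 lists the log2 of the mean FPKM gave 0 calls, and limma called 0 members whose change differed between the genotypes (9, 6, 4 and 8 at an unadjusted p under 0.05 for ribosomal proteins, the respiratory chain, the proteasome and ribosome biogenesis). Of all 9162 genes tested, 832 had an unadjusted p under 0.05 in that test.

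Nme2, a kinase that balances nucleotides, had levels of 4.28, 5.29 and 3.91 at 1 week, against 1.44, 2.26 and 1.93, without overlap. Its difference was 2.61 ± 0.42 (limma, adjusted p = 2.49e-05), with 0.52 in CK mice. The difference between the genotypes was 2.09 (limma, adjusted p = 0.0848). Of 27 tested antioxidant genes 8 were higher, against 9.17% of all genes tested, with a median of 0.69 in CKp25 and 0.38 in CK mice. Mt1, a metallothionein that binds zinc and copper, had levels of 4.88, 4.29 and 4.85 at 1 week, against 1.65, 1.33 and 2.21. The weeks did not overlap (difference 2.94 ± 0.55, limma adjusted p = 0.000288; CK mice 1.47). Prdx4, a peroxidase of the endoplasmic reticulum, rose by 2.12. Of 24 tested genes of the Bcl2 family and cell death 2 were higher, about the rate of all genes tested (9.17%). The median of that list was 0.19 in CKp25 and 0.22 in CK mice. Bcl2, which protects from apoptosis, had levels of 0.97, 0.68 and 0.72 at 1 week, against 0.07, 0.29 and 0.20, without overlap (difference 0.60 ± 0.12, limma adjusted p = 0.000554). Bax, which promotes apoptosis, was called at 1.45, but not without mouse 2 at 0 weeks or mouse 1 or 2 at 1 week. Tagln2, an actin-binding protein outside the lists, had levels of 3.1, 3.12 and 2.73 at 1 week, against 0.69, 1.01 and 1.21. It differed by 2.02 in CKp25 and 0.12 in CK mice, and its change exceeded that in CK mice by 1.89 (limma, adjusted p = 0.0274), a call lost in 7 of 12 omissions of a mouse. Mt1, Prdx4, Bcl2 and Tagln2 were not called with the log2 of mean FPKM.

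**Figure D5:**
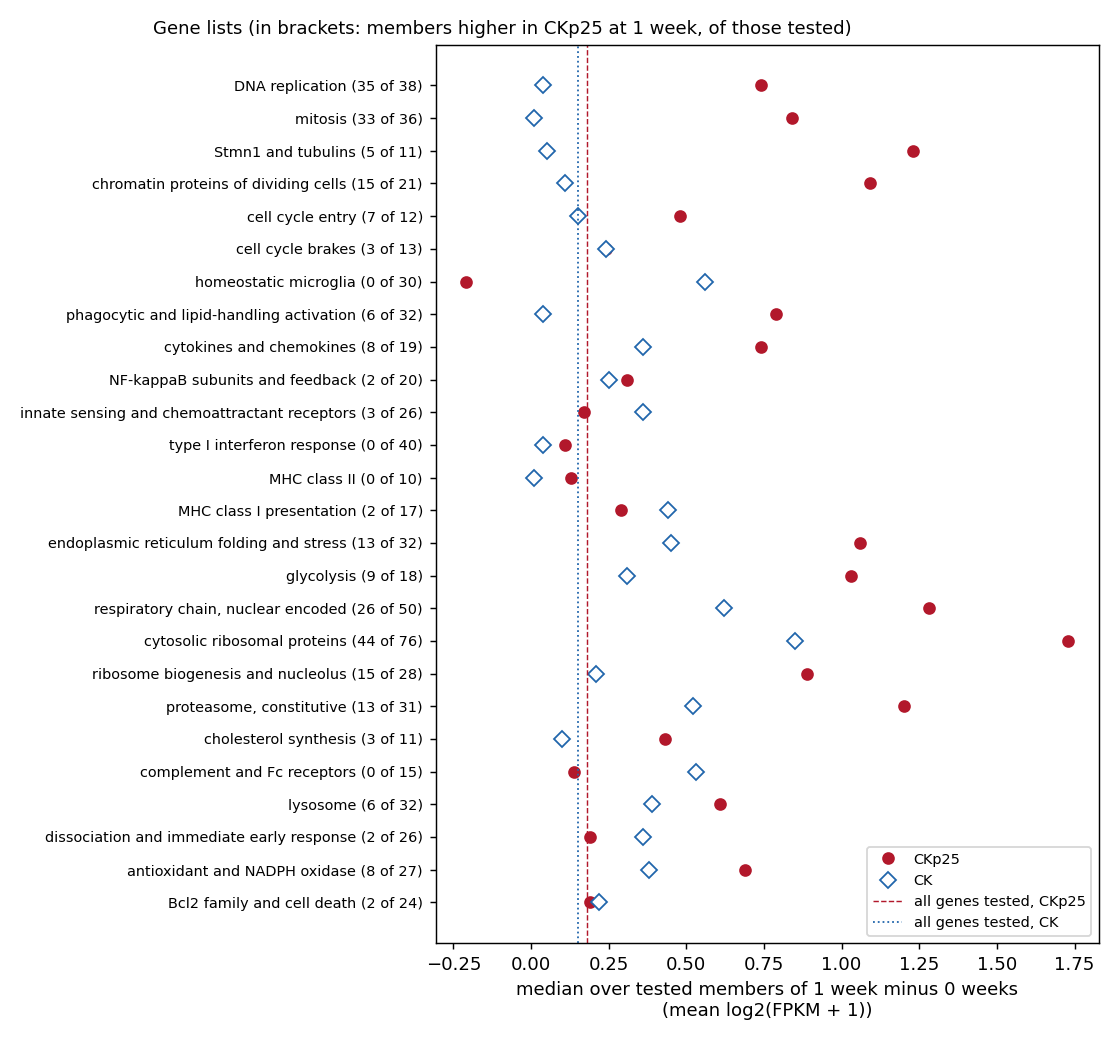
Median difference between 1 and 0 weeks in mean log2(FPKM + 1) (x axis) of the tested members of 26 gene lists (y axis), with circles for CKp25 and diamonds for CK mice and broken lines at the medians of all genes tested (0.18 and 0.15). The replication and mitosis lists lie at 0.74 and 0.84 in CKp25 mice with CK mice near 0, ribosomal proteins at 1.73 and 0.85, and the homeostatic list at -0.21 and 0.56.

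Genes of phagocytic and lipid-handling activation, the programme of microglia around damage, were higher in part. Of 32 tested 6 were higher, against 9.17% of all genes tested, and 1 without mouse 2 at 1 week. An unadjusted p under 0.05 was reached by 17, and 16 had all mice at 1 week above those at 0 weeks, against 23.8% of all genes tested. The median was 0.79 in CKp25 and 0.04 in CK mice. Lpl, which frees fatty acids from lipoproteins, kept its call in each omission, with levels of 1.42, 1.90 and 1.27 at 1 week, against 0.11, 0.05 and 0.75. The weeks did not overlap, and mouse 3 at 0 weeks stood closest to the later mice (difference 1.23 ± 0.27, limma adjusted p = 0.00182). Lpl was found in 29.2% ± 7.59 of cells at 1 week and 6.63% ± 6.50 at 0 weeks, and was not called with the log2 of mean FPKM. Apoe, the lipid carrier, had levels of 2.80, 5.86 and 3.83 at 1 week, against 3.42, 4.92 and 3.92, with the weeks interleaved (difference 0.08, limma adjusted p = 0.973). Spp1, osteopontin, had levels of 0.13, 1.64 and 0.60 at 1 week, against 0, 0.06 and 0, and did not pass (limma, adjusted p = 0.104). Clec7a and Axl, receptors of the same programme, were found in 12.9% ± 7.72 and 12.2% ± 8.38 of cells at 1 week and in 6.21% ± 2.94 and 4.27% ± 0.579 at 0 weeks, and neither passed. Of 32 lysosome genes 6 were higher, against 9.17% of all genes tested, and 1 without mouse 1 at 0 weeks. The median of the lysosome list was 0.61 in CKp25 and 0.39 in CK mice. Gusb, the glucuronidase of that organelle, had levels of 6.03, 6.2 and 6.0 at 1 week, against 3.65, 3.67 and 3.83, with both weeks tight and apart (difference 2.36 ± 0.47, limma adjusted p = 0.000662; CK mice 1.09). Of 11 tested genes of cholesterol synthesis 3 were higher, against 9.17% of all genes tested. The count was 0 without mouse 1 or 2 at 1 week or mouse 2 at 0 weeks. Of 26 immediate early and dissociation genes, which digestion of tissue can induce, 2 were higher, about the rate of all genes tested (9.17%). They were Ier3 at 1.82 and the heat shock gene Hsp90aa1 at 1.75, and the median of that list was 0.19 in CKp25 and 0.36 in CK mice.

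No gene of the homeostatic list, typical of resting microglia, was called in either direction (0 of 30 by limma, 1 at an unadjusted p under 0.05), with a median of -0.21 in CKp25 and 0.56 in CK mice. The difference between the genotypes had a median of -0.89 over the list, against 0.03 over all genes tested, and was positive for 6 of the 30. In that test limma called 0 members, with 8 at an unadjusted p under 0.05, against 832 of all 9162 genes tested. P2ry12, the receptor with which microglia sense ADP, had levels of 10.24, 9.26 and 9.55 at 1 week, against 10.56, 10.20 and 11.02, with the weeks overlapping (difference -0.91 ± 0.49, limma adjusted p = 0.261; CK mice 0.64). Sall1, the factor that keeps microglial identity, had levels of 3.72, 3.97 and 4.16 at 1 week, against 4.61, 4.69 and 4.72. All 3 later mice lay below the earlier ones, but the difference of -0.72 ± 0.46 did not pass (limma, adjusted p = 0.356). Tmem119 and Cx3cr1, surface proteins of microglia, differed by -0.21 and -0.50. After quantile normalization 5 members of the list were lower. By limma 0 of 40 interferon response genes, 0 of 10 genes of MHC class II and 0 of 15 complement and Fc receptor genes were called, with 0, 1 and 0 at an unadjusted p under 0.05. Of 17 genes of MHC class I presentation 2 were higher, H2-K1 and Psmb8, and 0 without mouse 1 or 2 of either week. Of all genes tested 9.17% were higher, and the median of this list was 0.29 in CKp25 and 0.44 in CK mice. Bst2, an interferon-induced tether of viruses, differed by 1.31 ± 0.66 (limma, adjusted p = 0.229), and H2-Ab1, a chain of MHC class II, by 0.54 ± 0.58 (limma, adjusted p = 0.636).

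Few genes were lower at 1 week. Rab6b, a GTPase of Golgi traffic, had levels of 0.75, 0.95 and 0.54 in CKp25 mice at 1 week, against 1.66, 1.65 and 2.33 at 0 weeks. The weeks did not overlap, and the difference was -1.14 ± 0.27 (limma, adjusted p = 0.00467). It was the 1 of the 10 lower genes called without any single CKp25 mouse, and was not called with the log2 of mean FPKM. Nr1d1, the clock repressor Rev-erb alpha, had levels of 0.14, 0.13 and 0 at 1 week, against 0.49, 0.83 and 0.27 (difference -0.44 ± 0.12, limma adjusted p = 0.0181). It was low in the CK mice too, at 0.15, 0.04 and 0.12 at 1 week, against 0.28, 0.61 and 0.36, where the difference of -0.31 did not pass (limma, adjusted p = 0.367). The call of Nr1d1 was lost without mouse 2 at 0 weeks or mouse 2 or 3 at 1 week. The lipid flippase gene Atp8a2, at -1.16, lost its call in each of the 6 omissions, and the nuclease subunit gene Slx1b, at -1.79, in 5.

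The sorted cells carried the markers of microglia throughout. All 264 cells at 1 week and all 257 at 0 weeks held at least 3 of 10 defining markers, whose levels summed to 84.57 to 91.86 per mouse at 1 week and 85.64 to 91.60 at 0 weeks. Itgam and Ptprc among them encode CD11b and CD45, by which cells were sorted, so this cut does not tell microglia from other sorted cells. Tmem119 was found in 100% of cells at both times, P2ry12 in 98.9% at 1 week and 99.2% at 0 weeks, and the least found, Aif1, in 78.7% and 75.5%. The 8 monocyte markers summed to 3.94 to 5.19 at 1 week and 3.09 to 3.51 at 0 weeks, mostly Lyz2, found in 50.5% and 36.2% of cells, and Plac8 was listed at 0 in both weeks. These sums did not overlap between the weeks, and in CK mice they were 3.13 to 4.11 at 1 week and 2.5 to 4.78 at 0 weeks. Ly6c2 and Chil3 were listed at 0 at 0 weeks and found in 0.362% and 0.754% of cells at 1 week. Cells with 3 or more monocyte markers numbered 1 at 1 week and 4 at 0 weeks. Markers of border-associated macrophages summed to 0.39 to 1.32 at 1 week and 0.35 to 2.71 at 0 weeks, with 2 and 6 such cells. The neutrophil markers S100a8, S100a9 and Retnlg were listed at 0 in both weeks, Mmp8 at 1 week only, and Camp and Ngp at 0 weeks only. Csf3r of the same list was found in 79.0% of cells at 1 week and 81.0% at 0 weeks. Cells with 3 or more neutrophil markers numbered 0 in both weeks. Whether monocyte markers had a part in the inflammatory genes was not tested. Cdk5r1, the mouse gene of p35, had levels of 1.37, 1.10 and 0.52 at 1 week, against 1.11, 0.85 and 0.92 (difference 0.04, limma adjusted p = 0.943), and since p25 is made in neurons this does not check the induction.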

How the data were processed

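The deposited table held FPKM made by the authors, 1 column per well. Cufflinks 2.2 and the mouse build mm9 are named in the submitters' processing notes, whereas the aligner, annotation and strand setting are not given in the sources used here. FPKM keep no read counts, so the depth of a value is unknown, and the series states only a median of 251353 mapped reads for its 2183 libraries. Every column had a sample (0 left over). The first well of each mouse often held over 8000 genes and was left out, and no doublet caller was run.

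Mice served as replicates. For each, a profile averaged log2(FPKM + 1) over wells with 1000 or more genes at FPKM of 1 or more, for genes found in at least 10% of those wells in at least 3 mice. limma 3.58.1 (R 4.3.3, trend and robust options) was fitted to the 25 mice of all 8 groups, with 2-sided tests, Benjamini-Hochberg adjustment over all genes and a threshold of 0.05. The script was tested on simulated data. CKp25 and CK mice were compared between weeks 1 and 0, and the difference of both changes was tested. Where the labels do not say how mice were handled together, p-values measure the spread between these mice. Shares of cells were compared by exact permutation of mice (Python 3.11.15, numpy 2.4.6, pandas 2.3.3, scipy 1.17.1, figures with matplotlib 3.10.9).

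Members and gene lists were chosen with earlier results of these data known. Named genes were up to 16 of the largest positive and up to 12 of the largest negative differences past the threshold without overlap between weeks (8 negative ones met this), the first 5 in each direction for the other tests, the 4 members of a list with the smallest p and any called member, and cell type markers. Predicted, clone-named and small RNA genes and pseudogenes were passed over. Promoters came from RefSeq (GRCm38.p6), matched by symbol. Alternatives were pseudocount 0.1, filters of 25% of wells or none, quantile normalization, rescaling of wells to a common sum, the log2 of a mouse's mean FPKM, wells of 500 or 1500 genes or more, wells of 1500 to 3500 genes, median genes as a covariate, first wells kept, only the groups compared, a replicate block and each mouse left out. Leaving out wells of over 8000 genes was added after the data were seen. Where a mouse was left out, the filter on low genes was not redone, and the same 9162 genes were tested. Mouse numbers did not pair the samples: deviations of same-numbered CKp25 mice correlated at -0.06, 0.09 and -0.24. The text gives part of the genes that this rule named.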

Additional observations from a re-analysis of the deposited data

Results flagged for a closer look

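The change from 0 to 1 week was tested for a difference between CKp25 and CK mice with limma, and 81 genes with a more positive change in CKp25 mice and 4 with a more negative one passed. Of the lists, the more positive change was found in 19 genes of DNA replication, 24 of mitosis, 6 chromatin proteins, 2 genes of cell cycle entry, 2 of the Stmn1 and tubulin list and 1 brake of the cycle. It was also found in 1 cytokine gene, Tnf, and 2 receptor genes. Genes found only in the CKp25 cells at 1 week could enter the test only by differing, so counts of cell cycle genes are a description. Of the 85 genes, 53 were called with each of the 12 mice left out in turn, 14 of them from the replication and 18 from the mitosis list, and 0 from the cytokine and receptor lists. The genes to be tested were not chosen again in these omissions.

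Single genes with the largest such differences, each CKp25 change minus CK change in mean log2(FPKM + 1), were Gpr84 at 2.76, Stmn1 at 2.47, C5ar1 at 2.3, Tagln2 at 1.89 and Cdkn1a at 1.72. Stmn1 was called without any 1 of the 12 mice, whereas Gpr84, C5ar1, Tagln2 and Cdkn1a lost the call in 3, 5, 7 and 9 of 12 omissions. In the other direction stood the sulfotransferase gene Sult1a1 at -2.08, the pseudogene Pisd-ps2 at -1.93, the extracellular matrix gene Ccdc80 at -1.36 and the homeobox gene Pknox1 at -1.30. These lost the call in 7, 7, 1 and 10 of 12 omissions. Sult1a1 differed by -1.05 between weeks in CKp25 and by 1.03 in CK mice, and neither was called on its own.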

How the results depend on the processing

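The counts in CKp25 mice, 840 higher and 10 lower, became 444 and 24 with median genes per well as a covariate, 345 and 123 after quantile normalization, 115 and 1 within wells of 1500 to 3500 genes, and 84 and 0 with the log2 of the mean FPKM. The count of lower genes also became 5 with the filter at 25% of wells, 17 with wells of 1500 or more genes, 35 with no filter and 27 with only the groups compared. With 1 mouse left out, 362 to 1228 were higher and 2 to 13 lower: 362 without mouse 1 and 422 without mouse 2 at 0 weeks, and 399, 370 and 1228 without mouse 1, 2 or 3 at 1 week. Of the 840, 242 were called in all 6 omissions of a CKp25 mouse. CK mice gave 1 higher and 5 lower genes with no filter, and 0 to 2 higher with 1 mouse left out (2 without mouse 3 at 1 week).

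Genes whose change differed between the genotypes, 81 higher and 4 lower, became 127 and 10 with the covariate, 6 and 0 with the filter at 25% of wells, 36 and 1 with the log2 of the mean FPKM, 149 and 11 with no filter, and 4 and 0 within wells of 1500 to 3500 genes. Of the 81, 15 were tested with the filter at 25% of wells and 52 within wells of 1500 to 3500 genes. Quantile normalization gave 67 higher and 9 lower. With 1 mouse left out these were 59 to 125 higher (125 without CKp25 mouse 3 at 1 week) and 1 to 6 lower. In CK mice the differences in the share of cells with 10 or more replication or mitosis genes were -0.0354 and -0.033 percentage points, of the other sign than with 5 or more. The cause of these shifts was not tested.

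A fit with the replicate block called 948 higher and 11 lower genes in CKp25 mice and 95 and 5 for the difference between the genotypes. In CKp25 mice, deviations correlated best with another number for mice 1 and 3 at 1 week, and with the same number for mouse 2 (0.086). Whether mouse numbers mark pairs cannot be settled from this. Wells over 8000 genes left out gave 892 and 7. FPKM give no read counts, so counting error could not be set beside any value.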

Other observations

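Within CKp25 mice at 1 week, cells with 10 or more replication or mitosis genes were set beside the other cells of the same mice for genes chosen after the values were seen. To compare wells of like gene number, wells of 2000 to 3000 genes were used, a band chosen after the data were seen, with 33 such cells (9, 7 and 17 per mouse) and 88 others. Ccl12 was found in 70.2% ± 16.6 of the cells with division genes and 38.3% ± 12.6 of the others, Ccl3 in 73.5% ± 8.06 and 50.1% ± 13.5, and Tnf in 51.7% ± 16.4 and 24.5% ± 7.56 (SD over 3 mice). The level of each was higher in 3 of 3 mice, as it was for Ccl4, Cdkn1a, Lpl, Stmn1 and the glycolysis genes Pkm and Aldoa. It was higher in 2 of 3 mice for Ldha and Mt1 and in 1 of 3 for Apoe and Spp1. C5ar1 was found in 68.5% ± 10.5 and 65.7% ± 9.11, and Sdf2l1 in 72.4% ± 13.5 and 69.0% ± 2.84, with a higher level in 2 of 3 mice for both. Gpr84 was found in 79.3% ± 22.4 and 57.0% ± 9.8, and Mif in 55.3% ± 23.2 and 41.3% ± 4.41, also with a higher level in 2 of 3 mice. Mif was found in 28.6% and 41.7% in mouse 2. Of the markers of resting microglia, Tmem119 differed in mean log2(FPKM + 1) by 0.01 (-0.67 to 0.99 over mice), P2ry12 by -0.73 (-1.65 to 0.77) and Cx3cr1 by -0.64 (-1.23 to 0.44), each with a higher level in 1 of 3 mice. The 2 classes still differed in median genes per well, by mouse 2749, 2745 and 2663 against 2410.5, 2535 and 2283, and no test was run.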
